A study of Mus musculus with 5 samples.

Results

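The proteasome subunits and their assembly factors were followed in lymphatic endothelial cells, the cells that line the lymph sinuses of a lymph node. The members were all protein-coding genes whose symbols start with Psma, Psmb, Psmc, Psmd, Psme, Psmf or Psmg and a digit, with Psmb8, Psmb9 and Psmb10 set apart. This rule took 47 of the 27843 genes in the count table, spread over 16 chromosomes. They were 16 core subunits, 17 regulatory subunits, 13 activators, inhibitor and assembly factors, and Psmc3ip, a meiotic recombination factor that shares the name stem but is no subunit. The rule uses no measured value.

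Messenger RNA was sequenced from lymph node cells sorted as CD45- and TER119-negative and as CD31- and podoplanin-positive, from C57BL/6 mice 8 weeks of age. The 3 control libraries came from littermates with the genotype Rankl flox/flox, so the floxed allele of the cytokine gene is shared by both groups. The 2 knockout libraries came from Ccl19 Cre Rankl flox/flox mice, in which the Ccl19 promoter drives the recombinase. The allele is thus removed in stromal cells that express Ccl19, and the sorted lymphatic cells are not the cells meant to lose it. The labels do not say how many animals each library holds, and p-values measure only the spread between these 5 libraries. The series asks which genes of lymph node lymphatic endothelial cells respond to RANKL.

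The proteasome is the protease of the cytosol and nucleus that degrades proteins marked with ubiquitin. Its barrel-shaped core has outer rings of alpha subunits (Psma), which control entry, and inner rings of beta subunits (Psmb), of which Psmb5, Psmb6 and Psmb7 carry the proteolytic sites. The regulatory particle caps the barrel: its base holds the ATPases (Psmc) that unfold substrates, its lid holds the deubiquitinase Psmd14, and further Psmd subunits bind ubiquitin or give the particle its shape. In cells exposed to interferon, Psmb8, Psmb9 and Psmb10 take the place of the catalytic subunits and form the immunoproteasome, which shapes the peptides shown on MHC class I.

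Total counts were 52839375 to 70171307 a library, and the members together took 0.419%, 0.423% and 0.426% of all counts in the controls, in order of their replicate number, and 0.511% and 0.460% in the knockouts. Levels are given as CPM, the count of a gene relative to the size of its library, with sizes scaled by the TMM method, and 1 CPM stood for 52.8 to 70.2 reads before that scaling. Tnfsf11, which encodes RANKL, stood at 0.380, 0.208 and 0.173 CPM in the controls and 0.164 and 0 CPM in the knockouts, too low in these cells to check the genotype. Markers of lymphatic endothelium were summed over 9 genes and lay at 9585 to 10729 CPM in controls and 10073 to 12017 CPM in knockouts, with 2 higher (Ccl21a and Mmrn1) and 1 lower (Prox1) at an adjusted p under 0.05 in edgeR. The sum hides these opposite differences: Ccl21a, which has near-identical copies and is uncertain, was at 3.79, Mmrn1 at 1.56 on the log2 scale, Prox1 at -0.75, and Lyve1, not past the threshold, at -0.57. Of the 12 markers of blood endothelium tested, 8 were higher and 0 lower in the knockouts at an adjusted p under 0.05. The sum over the 12 lay at 2556 to 2887 CPM in controls and 3001 to 3906 CPM in knockouts. Most of that sum was Plvap, with up to 211014 reads in a library against at most 4682 for Cd34. Plvap was not among the 8 (log2 fold change 0.25, adjusted p = 0.32 in edgeR), so the sum does not give the size of their difference. The 9 markers of fibroblastic reticular cells summed to 360 to 514 CPM in controls, and to 1101 and 511 CPM in the 2 knockouts in that order, with 0 past the threshold in edgeR and 1 at an unadjusted p under 0.05. Pericyte and smooth muscle markers summed to 116 to 151 against 156 to 196 CPM (3 of 11 higher), and leukocyte markers to 19.3 to 27.6 against 17.6 to 21.7 CPM (0 higher and 2 lower of 10). Only Apln and Itgax of the marker genes were at 0 reads in any library, each in 1 of the 5. The part of these marker differences in the values of the members was not tested. In sorted pools, fewer cells of a type and less RNA per cell cannot be told apart.

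Regulatory subunits had log2 fold changes (knockout minus control) of 0.06 to 0.41, core subunits had a lower median, and 3 of the 46 members tested passed the threshold. The 3 were Psmc1, Psmd6 and Psmd12, all of the regulatory particle and all higher, and none passed in the other direction (edgeR quasi-likelihood test, Benjamini-Hochberg adjustment over 15874 genes, adjusted p under 0.05). Among all genes tested, 7.24% passed, 3.25% as higher and 3.99% as lower. The share of 3 in 46 members was near that 7.24%. By class it was 3 of 17 regulatory and 0 of 15 core subunits, and 15 genes are too few to set 0 below 7.24%. The median log2 fold change was 0.30 over the regulatory subunits, a 1.23-fold higher level, and 0.16 over the core subunits, a 1.12-fold higher level, beside a median of 0.00 over all genes tested. All 17 regulatory subunits had a log2 fold change above 0, and 13 of 15 core subunits did, against 49.9% of all genes. In 16 of 17 regulatory subunits and 12 of 15 core subunits, both knockout libraries lay above all 3 controls, which was so for 22.8% of all genes. Among the 16, Psmd13 was nearly level, at 86.13 CPM in knockout 1 against 86.12 CPM in control 3. Members were counted in the same 5 libraries, and these counts do not treat them as independent. Without library scaling beyond the totals, or with the size factors of DESeq2, both medians kept their sign and moved by at most 0.01. When exon length and GC content were corrected by an offset, the median was 0.21 over the regulatory and 0.077 over the core subunits, Psmc2 alone passed among the members, and 415 higher and 341 lower genes passed over all genes, against 516 and 634.

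**Figure D1:**
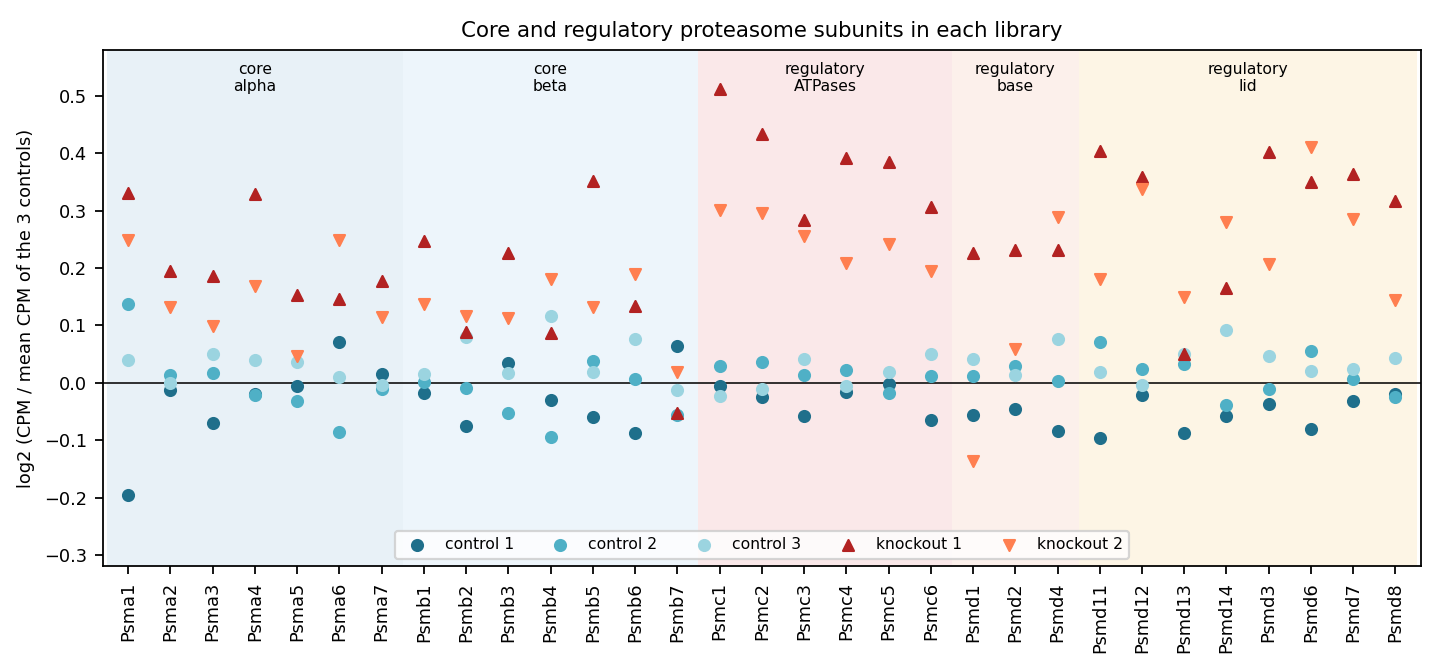
Level of each core and regulatory subunit in each library, as the log2 ratio of its CPM to the mean CPM of the 3 controls; circles are control libraries and triangles are knockout libraries, Psma8 is left off the scale, and Psmb11 was not tested. Both knockout libraries lie above the 3 controls for 16 of 17 regulatory subunits, Psmd1 being the exception. Psmd13 is counted among the 16 though nearly level, at 86.13 CPM in knockout 1 against 86.12 CPM in control 3.

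**Figure D2:**
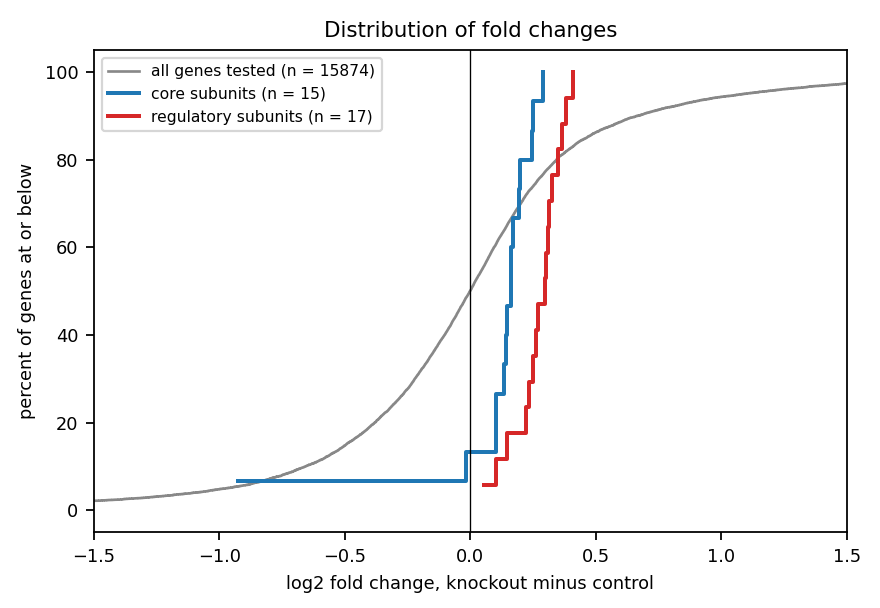
Cumulative share of genes (percent) by log2 fold change, knockout minus control, for all 15874 genes tested, the 15 core subunits and the 17 regulatory subunits; genes beyond 1.5 in either direction are outside the axis. The regulatory curve rises between 0.06 and 0.41, to the right of the core curve, while all genes spread widely around 0.

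Most subunits were measured precisely enough to bound the difference. The 95% interval of the fold change lay within 1.5-fold in either direction for 14 of 15 core and 16 of 17 regulatory subunits, against 36% of all genes. A log2 fold change over 0.2 in size was found in 14 of 17 regulatory and 4 of 15 core subunits, against 61.8% of all genes. The width of an interval depends on the expression level of a gene as well as on its spread. In controls the level per kilobase of exon was 16.3 to 149 CPM per kb over 14 core subunits (median 37.4, without Psma8 and Psmb11) and 16.9 to 91.0 CPM per kb over the 17 regulatory subunits (median 34.5).

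The ATPases of the base, the ring of motors that threads substrates into the core, were the most even class. All 6 were higher in both knockout libraries than in any control, with log2 fold changes of 0.25 to 0.41 and a median of 0.31. That order of libraries was found in 22.8% of all genes. All 6 had an unadjusted p under 0.05 as higher, and 1 passed the adjusted threshold. Over all genes, 2036 of 15874 had an unadjusted p under 0.05 as higher, and 26.4% in either direction. Psmc1 (ENSMUSG00000021178, chromosome 12, 100110154 to 100123405, mm10) stood at 101, 103 and 99.8 CPM in the controls and at 145 and 125 CPM in the knockouts, in the order of their replicate numbers as in all later sentences. The controls were nearly level, both knockouts were higher, and knockout 1 was the highest. Psmc1 rose by a log2 fold change of 0.41 ± 0.09 (SE; 95% interval 0.19 to 0.63, Benjamini-Hochberg adjusted p = 0.047, edgeR quasi-likelihood test). That call was lost without control 1 (0.41, adjusted p = 0.12), control 2 (0.43, adjusted p = 0.13), control 3 (0.40, adjusted p = 0.18) or knockout 1 (0.30, adjusted p = 0.083), and with the length and GC offset (0.33, adjusted p = 0.11). It was also lost with library totals alone (0.42, adjusted p = 0.067) and narrowly in limma-voom (0.41, adjusted p = 0.05002).

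Psmc2 stood just outside the threshold, at 114, 119 and 115 CPM in the controls and 157 and 142 CPM in the knockouts. Its groups did not overlap, and its log2 fold change was 0.37 ± 0.09 (SE, Benjamini-Hochberg adjusted p = 0.0502, edgeR quasi-likelihood test). It was past the threshold with the length and GC offset (0.44, adjusted p = 0.045) and without knockout 2 (0.43, adjusted p = 0.029). Psmc6 had the smallest difference of the ATPases, from 71.2, 75.1 and 77.2 CPM in the controls to 92.1 and 85.3 CPM in the knockouts. Its log2 fold change was 0.25 ± 0.09 (SE, adjusted p = 0.12 in edgeR). The other 3, Psmc3, Psmc4 and Psmc5, had log2 fold changes of 0.27, 0.30 and 0.32, and the latter 2 passed without knockout 2 (0.39 and 0.38, adjusted p = 0.037 and 0.039 in edgeR).

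The lid, which carries the deubiquitinase and contacts the rest of the particle, gave the other 2 members past the threshold. All 8 lid subunits that the rule took were higher in both knockouts than in every control, with a median log2 fold change of 0.30. Over all genes this order was found in 22.8%. Psmd13 was nearly level, at 86.13 CPM in knockout 1 against 86.12 CPM in control 3. Lid components under other symbols are not among these 8. Sem1, counted with the associated factors, had a log2 fold change of 0.06 and overlapping groups. Psmd6 (ENSMUSG00000021737, chromosome 14, 14112174 to 14120984, mm10) stood at 79.8, 87.7 and 85.6 CPM in the controls and at 108 and 112 CPM in the knockouts. It rose by a log2 fold change of 0.38 ± 0.09 (SE; 95% interval 0.18 to 0.58, Benjamini-Hochberg adjusted p = 0.046, edgeR quasi-likelihood test). Knockout 2 was the higher library here, unlike in Psmc1. The call was lost without control 1 (0.34, adjusted p = 0.12), control 2 (0.41, adjusted p = 0.11), control 3 (0.39, adjusted p = 0.16) or knockout 2 (0.35, adjusted p = 0.069), and with the length and GC offset (0.37, adjusted p = 0.076).

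Psmd12 (ENSMUSG00000020720, chromosome 11, 107479484 to 107504362, mm10) stood at 74.8, 77.2 and 75.7 CPM in the controls and at 97.4 and 95.9 CPM in the knockouts, with little spread within either group. It rose by a log2 fold change of 0.35 ± 0.08 (SE; 95% interval 0.17 to 0.53, Benjamini-Hochberg adjusted p = 0.046, edgeR quasi-likelihood test). Its fold stayed between 0.33 and 0.36 with any 1 library left out, but the call was lost each time: the adjusted p was 0.12 without control 1, 0.13 without control 2, 0.18 without control 3, 0.061 without knockout 1 and 0.051 without knockout 2. Without control 3, the count over all genes fell from 1150 to 11, so the loss of a call there was shared by most genes. The call was also lost with the length and GC offset (0.34, adjusted p = 0.068), with library totals alone (0.35, adjusted p = 0.057) and without a filter on low counts (0.34, adjusted p = 0.056). Psmd13 had the smallest difference of the lid, from 78.3, 85.1 and 86.1 CPM in the controls to 86.1 and 92.3 CPM in the knockouts, a log2 fold change of 0.10 ± 0.09 (SE, adjusted p = 0.52 in edgeR). The other 5 lid subunits, Psmd3, Psmd7, Psmd8, Psmd11 and the deubiquitinase Psmd14, had log2 fold changes of 0.22 to 0.33 and did not pass, though Psmd3 (0.40, adjusted p = 0.040 in edgeR) and Psmd7 (0.36, adjusted p = 0.049) did without knockout 2.

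The non-ATPase subunits of the base, Psmd1, Psmd2 and the ubiquitin receptor Psmd4, had a median log2 fold change of 0.15. Psmd4 had the largest, from 106, 113 and 119 CPM in the controls to 132 and 137 CPM in the knockouts, a log2 fold change of 0.26 ± 0.09 (SE, adjusted p = 0.11 in edgeR). Psmd1, a scaffold of the base, stood at 241, 252 and 258 CPM in the controls and at 293 and 228 CPM in the knockouts. Of the regulatory subunits that the rule took, it was the only one with overlapping groups, since knockout 2 lay below and knockout 1 above all controls. Its log2 fold change was 0.06 ± 0.12 (SE, adjusted p = 0.81 in edgeR), and it turned to -0.14 without knockout 1.

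The upstream sequences of the 3 regulatory genes that passed are shown. This choice rests on the threshold alone, and Psmc2 stood just outside it. Each sequence is the 250 bases before the start that RefSeq annotates (GRCm38.p6), 5′ to 3′ on the strand of its gene. Psmc1 is at chr12:100109952-100110201 (plus strand), Psmd12 at chr11:107479278-107479527 (plus strand) and Psmd6 at chr14:14120946-14121195 (minus strand). Capitals mark matches to CCGGAAG, a core of the sites bound by ETS-family factors, to CCAAT, and to TGACNNNGC, the letters of an antioxidant response element of the kind bound by Nfe2l1 and Nfe2l2, on either strand.
Psmc1: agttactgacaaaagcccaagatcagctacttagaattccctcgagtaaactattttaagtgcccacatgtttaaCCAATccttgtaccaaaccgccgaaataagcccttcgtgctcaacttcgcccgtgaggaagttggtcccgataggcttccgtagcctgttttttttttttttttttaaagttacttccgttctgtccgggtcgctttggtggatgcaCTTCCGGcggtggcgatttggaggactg
Psmd12: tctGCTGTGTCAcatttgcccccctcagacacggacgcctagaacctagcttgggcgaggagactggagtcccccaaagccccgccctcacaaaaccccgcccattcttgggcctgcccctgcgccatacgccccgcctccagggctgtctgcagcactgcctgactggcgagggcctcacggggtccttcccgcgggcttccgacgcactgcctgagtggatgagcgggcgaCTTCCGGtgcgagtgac
Psmd6: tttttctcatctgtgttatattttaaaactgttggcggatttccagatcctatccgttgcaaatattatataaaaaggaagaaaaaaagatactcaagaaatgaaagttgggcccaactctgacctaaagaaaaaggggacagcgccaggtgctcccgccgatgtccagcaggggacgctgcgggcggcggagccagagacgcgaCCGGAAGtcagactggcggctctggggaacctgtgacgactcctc
All 3 hold CCGGAAG on one strand or the other, with its first base on the strand of the gene 28 bases before the start in Psmc1, 17 in Psmd12 and 45 in Psmd6. Psmc1 also holds a CCAAT match 175 bases before its start, and Psmd12 a TGACNNNGC match 247 bases before its start.

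The same letters were counted in RefSeq promoters (250 bases before to 50 after the start) of the 39 members for which one was available here. The shares below leave out the other members. Both strands were read, and a gene was counted once if any of its promoters matched. CCGGAAG, which was picked after the sequences had been read, was in 9 of 14 regulatory genes (64.3%) and 1 of 12 core genes (8.33%), against 9.93% of 27025 genes. It was in 4 of 12 genes of activators, inhibitor and assembly factors. TGACNNNGC was in 2 of 14 regulatory and 2 of 12 core genes, against 3781 of 27025 genes, and CCAAT in 4 of 14 and 7 of 12, against 41.1% of genes. The 9 regulatory genes with CCGGAAG had a median log2 fold change of 0.30 (0.10 to 0.41), and the 5 without it 0.23 (0.06 to 0.32), so the ranges overlapped. The other 6 regulatory genes with the match are shown as 27-base windows, turned so that CCGGAAG in capitals reads 5′ to 3′, with 10 bases on each side. They are at chr5:21785181-21785207 and chr5:21786713-21786739 (Psmc2, which has 2 annotated starts), chr14:45329714-45329740 (Psmc6), chr11:80428594-80428620 (Psmd11), chr7:140882378-140882404 (Psmd13), chr16:20651616-20651642 (Psmd2) and chr3:95042723-95042749 (Psmd4). The windows of Psmc6 and Psmd13 are read on the plus strand and the others on the minus strand.
Psmc2 upstream start: gagccccatcCCGGAAGtgctcactgg
Psmc2 downstream start: ctcttccccaCCGGAAGtagctccgcg
Psmc6: ggcgggccagCCGGAAGgggcggagcc
Psmd11: aaacacacacCCGGAAGacccgccctc
Psmd13: gcccgcggtgCCGGAAGtgagcgagca
Psmd2: gtcctccagaCCGGAAGcgccctgcgg
Psmd4: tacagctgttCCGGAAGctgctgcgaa
A match is a run of letters and says nothing of binding in these cells.

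The core subunits had the smaller median difference, and none of the 15 tested passed in edgeR, DESeq2 or limma-voom. In edgeR 4 of the 15, all higher, had an unadjusted p under 0.05. Over all genes this was so for 2036 of 15874 as higher and for 26.4% in either direction. The alpha ring had a median log2 fold change of 0.16, and so had the beta ring. Psma1, a constitutive alpha subunit, had the largest, from 92.8, 117 and 109 CPM in the controls to 134 and 126 CPM in the knockouts. Control 1 was the lowest library, the groups did not overlap, and the log2 fold change was 0.29 ± 0.11 (SE, adjusted p = 0.16 in edgeR). Psma8, an alpha subunit of the testis, was barely detected, at 0.746, 0.529 and 0.866 CPM in the controls and 0.457 and 0.292 CPM in the knockouts, a log2 fold change of -0.93 ± 0.46 (SE, adjusted p = 0.25 in edgeR). Psmb11, the beta subunit of thymic cortical epithelium, had 10, 7 and 8 reads in the controls and 1 and 5 reads in the knockouts and was not tested.

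The catalytic subunits of the standard core spread around that median. Psmb5, the chymotrypsin-like subunit, had the largest difference of the beta ring, from 62.8, 67.2 and 66.3 CPM in the controls to 83.6 and 71.8 CPM in the knockouts, a log2 fold change of 0.25 ± 0.10 (SE, adjusted p = 0.16 in edgeR). Psmb6, the caspase-like subunit, went from 104, 111 and 117 CPM to 121 and 126 CPM, a log2 fold change of 0.16 ± 0.09 (SE, adjusted p = 0.29 in edgeR). Psmb7, the trypsin-like subunit, overlapped between groups, at 90.4, 83.2 and 85.7 CPM in the controls and 83.3 and 87.6 CPM in the knockouts. Its log2 fold change of -0.02 ± 0.08 (SE, 95% interval -0.22 to 0.18) was the smallest in size of the core. Nek6, on the opposite strand, covers 11.8% of the exon bases of Psmb7, Sirt3 covers 10.1% of those of Psmd13 and Slc39a13 8.25% of those of Psmc3, and the library kits do not mark strand.

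The immunoproteasome counterparts had log2 fold changes near or below 0, and none passed with all 5 libraries. Psmb8 stood at 268, 266 and 302 CPM in the controls and 249 and 311 CPM in the knockouts, with overlapping groups and a log2 fold change of 0.01 ± 0.12 (SE). Psmb9 stood at 88.2, 93.1 and 94.97 CPM in the controls and 70.2 and 87.3 CPM in the knockouts, both below all controls, at -0.23 ± 0.11 (SE, adjusted p = 0.26 in edgeR). Without knockout 2 it was at -0.40 and just past the threshold (adjusted p = 0.0498), and without knockout 1 at -0.08. Psmb10 stood at 106, 95.5 and 114 CPM in the controls and 96.9 and 113 CPM in the knockouts, at 0.00 ± 0.11 (SE). In all 3 genes knockout 1 was the lower knockout library, whereas it was the higher one in 13 of 17 regulatory and 10 of 15 core subunits. Relative to the mean of the controls, knockout 1 had median log2 ratios of 0.35 for the regulatory, 0.18 for the core and -0.16 for the immunoproteasome subunits. The same medians in knockout 2 were 0.24, 0.13 and 0.11, so the classes stood farther apart in knockout 1.

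Ratios within a library, which do not depend on library size, set the classes against each other. The summed level of the regulatory subunits was 155%, 160% and 156% of that of the core in the controls and 173% and 161% in the knockouts. Knockout 2 was only just above the highest control, and an exact permutation test gave a two-sided p of 0.2, the smallest that 3 against 2 libraries allow. The ATPases alone summed to 52.9%, 53.9% and 52.2% of the core in the controls and to 60.7% and 56.9% in the knockouts (exact permutation test, two-sided p = 0.2). The ratio of Psmb9 to Psmb6 in CPM per kb was 0.433, 0.428 and 0.416 in the controls and 0.296 and 0.354 in the knockouts (exact permutation test, two-sided p = 0.2). Psmb8 to Psmb5 overlapped between groups, at 1.13, 1.05 and 1.21 against 0.793 and 1.15 (exact permutation test, two-sided p = 0.6), and so did Psmb10 to Psmb7, at 2.34, 2.30 and 2.67 against 2.33 and 2.59 (exact permutation test, two-sided p = 1). These were 5 of 7 ratios computed, and none could pass 0.05 in this design.

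**Figure D3:**
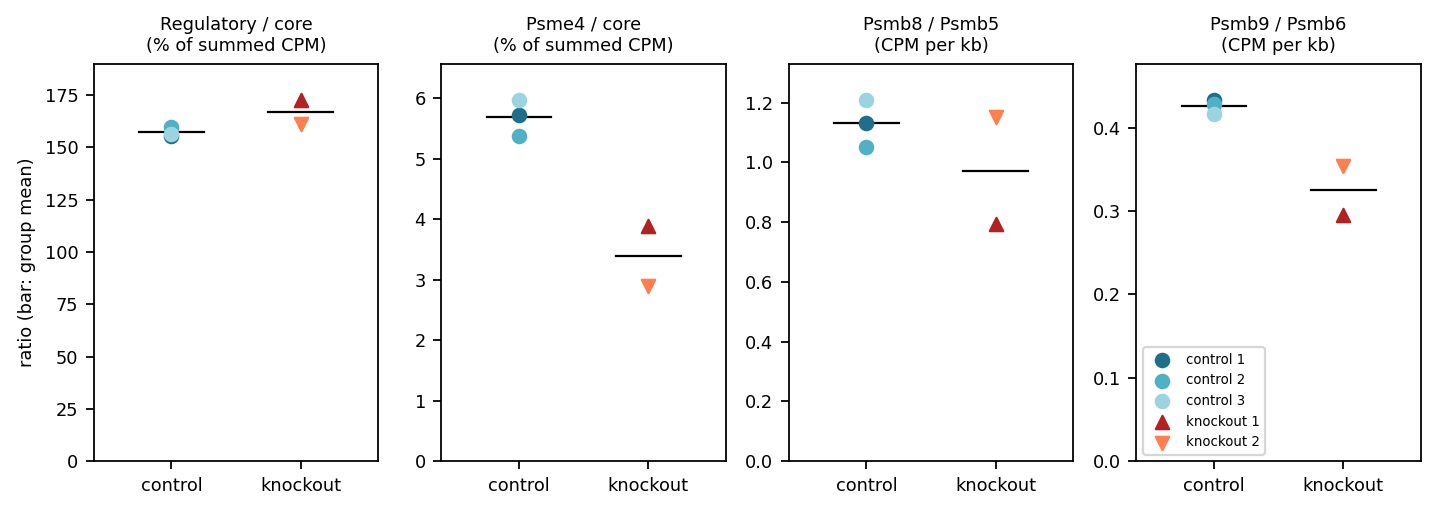
Ratios within each library for controls and knockouts, with the group mean as a bar: the summed CPM of regulatory subunits and the CPM of Psme4, each as a percent of the summed CPM of core subunits, and the ratios of Psmb8 to Psmb5 and of Psmb9 to Psmb6 in CPM per kb. The knockouts lie above the controls in the first panel, by little in knockout 2, below them for Psme4 and for Psmb9 to Psmb6, and on both sides of them or among them for Psmb8 to Psmb5.

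None of the 13 activators, inhibitor and assembly factors passed in edgeR. Their log2 fold change was above 0 in 11 and below 0 in 2, with a median of 0.14. At an unadjusted p under 0.05 there were 2, against 26.4% of all genes, 1 (lower) passed in DESeq2 and 0 passed in limma-voom. The lowest was Psme4, which encodes PA200, a nuclear cap of the core that works without ubiquitin. It stood at 77.9, 74.2 and 85.0 CPM in the controls and 61.3 and 44.6 CPM in the knockouts, both below all controls and knockout 2 the lowest, an order of groups found in 22.5% of all genes. Its log2 fold change was -0.58 ± 0.15 (SE; 95% interval -0.93 to -0.23, Benjamini-Hochberg adjusted p = 0.062, edgeR quasi-likelihood test), and it ranged from -0.83 without knockout 1 (adjusted p = 0.015) to -0.37 without knockout 2 (adjusted p = 0.084). As a percent of the summed core it was 5.71, 5.37 and 5.97 in the controls and 3.89 and 2.89 in the knockouts (exact permutation test, two-sided p = 0.2).

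Psme1 and Psme2, which form the interferon-inducible PA28 cap, moved together across libraries. Psme1 stood at 181, 173 and 194 CPM in the controls and 178 and 225 CPM in the knockouts, and Psme2 at 75.2, 72.5 and 79.1 CPM and at 74.9 and 90.9 CPM. In both, knockout 1 lay among the controls and knockout 2 above them, and the log2 fold changes were 0.14 ± 0.12 and 0.13 ± 0.11 (SE). Without knockout 2 they turned to -0.04 and -0.02, and without knockout 1 they were 0.30 and 0.26. Psme3, the nuclear PA28 gamma, stood at 146, 142 and 150.0 CPM in the controls and 153 and 146 CPM in the knockouts, with overlapping groups. Its log2 fold change was 0.03 ± 0.08 (SE, 95% interval -0.16 to 0.22). Psme2b, whose symbol marks it as a second copy of Psme2, had a log2 fold change of -0.32 and is uncertain, since the treatment of reads that fit several copies is not given in the sources used here.

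Psmf1, which encodes the inhibitor PI31, stood at 39.7, 34.3 and 34.6 CPM in the controls and 45.3 and 40.2 CPM in the knockouts. Knockout 2 was barely above control 1, and the log2 fold change was 0.24 ± 0.11 (SE, adjusted p = 0.22 in edgeR). The core assembly chaperones Psmg1 to Psmg4 had log2 fold changes of 0.00 (Psmg4) to 0.27 (Psmg3). Of the chaperones of the regulatory base, Psmd9 and Psmd10 were at 0.16 and 0.06, and 25.5% of the exon bases of Psmd9 lie under the opposite-strand Gm26745. Psmd5, the remaining one, stood at 30.4, 28.2 and 29.1 CPM in the controls and 49.0 and 32.3 CPM in the knockouts. Knockout 1 stood well above the rest and knockout 2 just above control 1, so the log2 fold change of 0.48 ± 0.17 (SE, adjusted p = 0.14 in edgeR) became 0.14 without knockout 1 and 0.74 without knockout 2 (adjusted p = 0.0099). Psmc3ip, the gene that is no subunit, stood at 0.803, 0.673 and 0.828 CPM in the controls and 1.04 and 1.34 CPM in the knockouts, with a log2 fold change of 0.63 ± 0.34 (SE, adjusted p = 0.29 in edgeR).

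**Figure D4:**
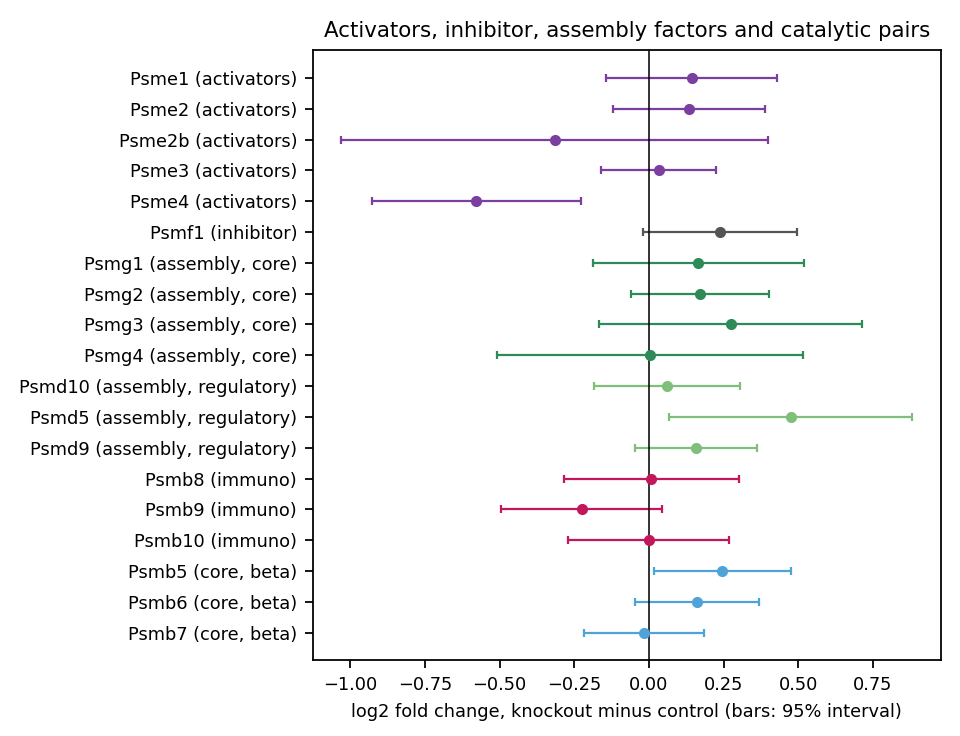
Log2 fold change (knockout minus control) with its 95% interval for the activators, the inhibitor, the assembly factors, the 3 immunoproteasome subunits and their standard counterparts. Only the intervals of Psme4, on the lower side, and of Psmd5 and Psmb5, on the higher side, leave out 0, and none of these 3 passed at an adjusted p under 0.05.

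Genes that work with the proteasome were followed in 4 lists, which were written with earlier results of these data known. Of 18 associated factors (ubiquitin receptors, shuttles, ligases and the maturation factor Pomp), 1 was higher, 0 were lower and the median log2 fold change was 0.05. The one was Zfand2a, which encodes AIRAP, a proteasome-binding protein induced by arsenite, at 166, 167 and 179 CPM in the controls and 234 and 216 CPM in the knockouts. It rose by a log2 fold change of 0.40 ± 0.09 (SE, Benjamini-Hochberg adjusted p = 0.044, edgeR quasi-likelihood test), with 0.34 to 0.45 over the 16 alternatives. It was not past the threshold without control 1 (0.38, adjusted p = 0.12), control 2 (0.39, adjusted p = 0.14), control 3 (0.44, adjusted p = 0.14) or knockout 1 (0.34, adjusted p = 0.073), with the length and GC offset (0.37, adjusted p = 0.075) or with library totals alone (0.41, adjusted p = 0.053). Pomp, which matures the core, was at 0.18 ± 0.10, the shuttle factor Ubqln2 at -0.45 ± 0.16 and the thioredoxin-like Txnl1 at 0.36 ± 0.11 (SE), none past the threshold. Ecpas, an adaptor of the regulatory particle, stood at 71.7, 64.6 and 67.2 CPM in the controls and 54.2 and 36.5 CPM in the knockouts, at -0.58 ± 0.17 (SE, adjusted p = 0.082 in edgeR). It ranged from -0.90 without knockout 1, past the threshold (adjusted p = 0.012), to -0.33 without knockout 2 (adjusted p = 0.10), and passed in DESeq2 (adjusted p = 0.015).

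Genes of ubiquitin supply had mostly lower values in the knockouts, none past the threshold. Of the 4 ubiquitin genes and the 2 activating enzymes Uba1 and Uba6, 0 passed in either direction in edgeR, and the median log2 fold change was -0.23. In 3 of them the unadjusted p was under 0.05 as lower, against 2162 of 15874 genes. Uba1 stood at 525, 514 and 522 CPM in the controls and 443 and 450 CPM in the knockouts. Its groups were apart as lower, an order found in 22.5% of all genes. Its log2 fold change was -0.22 ± 0.09 (SE, adjusted p = 0.16 in edgeR). Uba6, the other activating enzyme, was at -0.39 ± 0.11 (SE, adjusted p = 0.082 in edgeR), and at -0.53 and past the threshold without knockout 1 (adjusted p = 0.038).

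Of 7 genes of the transcriptional control of the proteasome, 0 passed in edgeR and the median was 0.17. An unadjusted p under 0.05 was found in 4 of the 7, against 26.4% of all genes. Nfe2l1, the factor known for restoring proteasome genes when the proteasome is inhibited, stood at 467, 464 and 461 CPM in the controls and 386 and 395 CPM in the knockouts. Its groups were apart, in the direction opposite to the subunits, an order of groups found in 22.5% of all genes. Its log2 fold change was -0.25 ± 0.09 (SE, adjusted p = 0.12 in edgeR). Its relative Nfe2l2, which drives the oxidative stress response, stood at 209, 232 and 220 CPM in the controls and 275 and 299 CPM in the knockouts, at 0.38 ± 0.09 (SE, adjusted p = 0.055 in edgeR), and at 0.44 without knockout 1 (adjusted p = 0.044). Their small Maf partners Maff and Mafk were at 0.37 and 0.45, neither past the threshold.

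Of 13 heat shock genes, 4 were higher, 0 were lower and the median log2 fold change was 0.28. Hspb1, a small heat shock protein, stood at 37.2, 54.4 and 41.0 CPM in the controls and 148 and 139 CPM in the knockouts. It rose by a log2 fold change of 1.70 ± 0.16 (SE, Benjamini-Hochberg adjusted p = 0.0098, edgeR quasi-likelihood test). It missed the threshold without control 3 (1.65, adjusted p = 0.068). The co-chaperone Bag3 rose by 0.78 on the log2 scale (edgeR adjusted p = 0.017) and missed the threshold without control 1 (0.77), control 2 (0.75) or control 3 (0.80). The near-identical pair Hspa1a and Hspa1b, between which reads can be split, rose by 0.74 and 0.69 (edgeR adjusted p = 0.041 and 0.020). Hspa1a missed the threshold without control 2 (0.62), control 3 (0.72) or knockout 2 (0.65) and under the length and GC offset (0.64), and Hspa1b without control 2 (0.62) or control 3 (0.70). The remaining genes of the list did not pass, with log2 fold changes of -0.02 (Hspe1) to 0.42 (Hsph1). Among them Hspa8, Hspd1 and Dnajb1 were at 0.00, 0.02 and 0.12. With single libraries left out, Hspa8 ran from -0.26 to 0.21 and Hspe1 from -0.29 to 0.20.

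**Figure D5:**
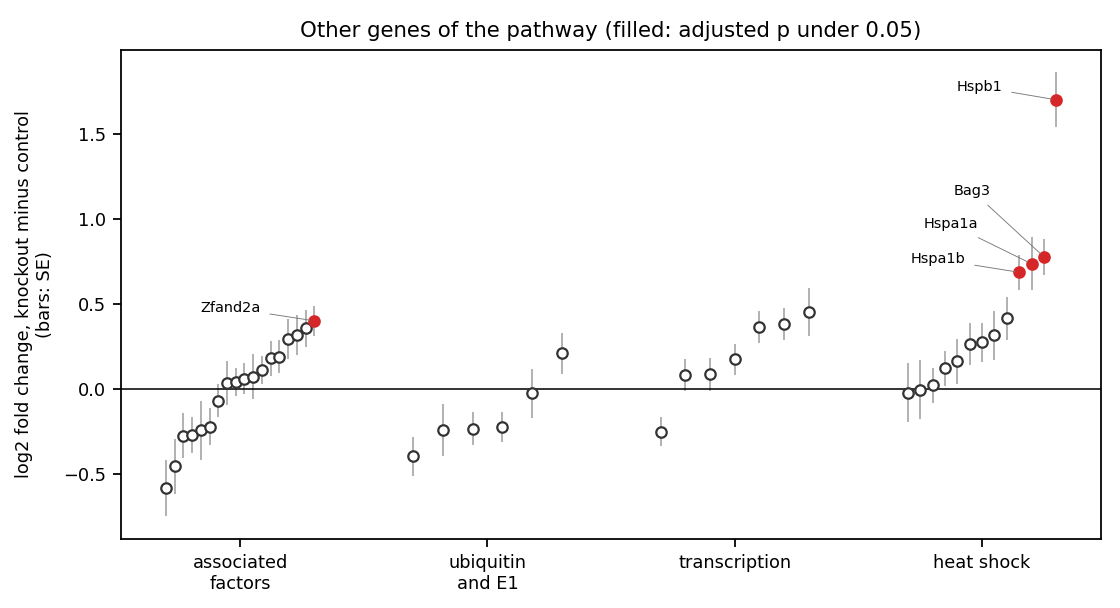
Log2 fold change (knockout minus control) with its SE for each gene of the 4 lists, in increasing order within a list; filled points passed at an adjusted p under 0.05. The filled points are Zfand2a among the associated factors and Hspb1, Bag3, Hspa1a and Hspa1b among the heat shock genes.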

How the data were processed

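Raw counts of reads for each Ensembl gene were deposited by the authors in 1 table, per the file headers. HTSeq 0.6.1, Bowtie2 2.1.0, TopHat2 2.0.14, bcl2fastq 2.17.1.14 and mm10 are named in the submitters' processing notes. What each tool did, its settings, the annotation release and how reads with several matches were handled is not given in the sources used here. Full-length cDNA from 4 ng of RNA was amplified and fragmented with transposase per the labels' protocols, without molecular identifiers, so reads are not independent molecules.

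Symbols, biotypes, positions and exon lengths came from GENCODE M21 (27648 of 27843 genes matched), and promoters from RefSeq (GRCm38.p6). Genes were kept with filterByExpr (minimum count 10), scaled with TMM (factors 0.974 to 1.028) and tested in R 4.3.3 with edgeR 4.0.16 (quasi-likelihood F test, robust, legacy form). P-values were adjusted by Benjamini-Hochberg over 15874 genes, with a threshold of 0.05. Each SE was obtained from the fold change and its F value. The pipeline was tested on simulated counts. Groups came from the genotype in the labels.

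The members and lists were chosen with earlier results of these data known. Given in every library are members past the threshold, the highest and lowest fold change of each class, the catalytic and immunoproteasome subunits, Psme1 to Psme4 and Psmf1. Of each other list, up to 4 genes with the smallest p, Pomp and Nfe2l1 are named. Psmc2, Psmc3, Psmc4, Psmc5, Psmd2, Psme2b, Psmg3, Psmd9, Psmd10, Hspa8, Hspd1, Hspe1, Psmc3ip, the lymphatic markers given with a fold change and the other lid subunits are named by class or were chosen after their values were seen. Of the list genes, 3 symbols were not used here. Alternatives were other scaling, filters, tools (DESeq2 1.42.0, limma-voom with limma 3.58.1), an edgeR fit of the newer form, a threshold of 0.1, a replicate block, an exon length and GC offset (loess span 0.5), and each library left out.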

Additional observations from a re-analysis of the deposited data

How the results depend on the processing

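The class medians were above 0 under every alternative run. The number of genes past the threshold over all genes, 1150 (516 higher, 634 lower), was 2720 with DESeq2, 2546 at a threshold of 0.1, and 756 (415 higher, 341 lower) with the length and GC offset. The larger side thus turned from lower to higher with the offset, and it did so without control 1 (135 higher, 131 lower). Leaving out each library in turn gave 11 (without control 3) to 1736 (without knockout 1) genes. For the regulatory subunits the count of 3 was 1 with library totals alone, 5 with a filter at 1 CPM in 2 libraries, 9 with DESeq2, 9 at a threshold of 0.1, 1 with the offset (Psmc2), and 0 to 6 when single libraries were left out. For the activators, inhibitor and assembly factors the count of 0 was 1 without a filter, 1 with DESeq2, 1 at a threshold of 0.1, and 0 to 1 when single libraries were left out, the 1 being Psme4 (lower) without knockout 1 and Psmd5 (higher) without knockout 2. The core count was 0 under every alternative run. With the offset the medians moved to 0.077 for the core and 0.21 for the regulatory subunits, and leaving out a library gave 0.24 to 0.35 for the latter. The cause of these shifts was not tested.

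Control and knockout libraries share the replicate numbers 1 and 2, and the deviations of libraries with the same number correlated at 0.048 and -0.052. The deviations of the 2 knockouts from their mean are mirror images, so this check cannot decide whether equal numbers share more than a number. With the replicate number as a block, 0 genes passed over all genes (2808 at an unadjusted p under 0.05) and 0 regulatory subunits did (6 unadjusted). With the block and the offset together, 9 genes and 0 regulatory subunits passed, and the medians were 0.090 for the core and 0.22 for the regulatory subunits.

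With 3 against 2 libraries, differences of the size seen in the regulatory subunits sit at the threshold. Each of the 3 calls was lost when any 1 control was left out. The count over all genes then also fell, from 1150 to 266, 173 and 11 without control 1, 2 and 3, so that loss was not particular to these genes. Amplified reads add error that counts do not show. Antisense overlap and reads shared with copies could not be separated in this table.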

Other observations

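Psme4 and Ecpas, the members of the proteasome and of its associated factors with the lowest log2 fold changes among genes above 1 CPM, were chosen here after their values were seen. Both were highest in the controls, intermediate in knockout 1 and lowest in knockout 2. Their exon lengths, 8382 and 11447 bases, are above the median of 4117 bases over all genes tested. The next longest members, Psmd1 (7265 bases), Psmd9 (7248 bases) and Psmd5 (7230 bases), had log2 fold changes of 0.06, 0.16 and 0.48. Across genes the log2 fold change correlated with log2 exon length at -0.11 (Pearson, 15821 genes, which are not independent replicates). With the length and GC offset Psme4 was at -0.43. The part of length in these values was not tested beyond that offset. Across the 31 core and regulatory subunits without Psma8 and Psmb11, whose exon lengths run from 899 to 7265 bases, the same correlation was -0.04.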
